A study of Mus musculus with 6 samples.

Results

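The genes described here are 10 genes of liver sinusoidal endothelial identity: Kdr, Flt4, Stab1, Stab2, Lyve1, Clec4g, Gpr182, Dnase1l3, Cdh5 and Pecam1. They were chosen by symbol as rows of the deposited gene table, and all 10 were found among its 28601 genes. RNA was sequenced from the livers of 6 male mice, 3 wild type (WT) and 3 with serine in place of cysteine 52 of the peroxidase peroxiredoxin 1 (PRDX1 Cys52Ser). At 8 weeks of age the mice of both genotypes were put on CDAHFD, a high-fat diet defined in its amino acids and deficient in choline, used as a model of steatohepatitis. Per the series design and the titles they were kept on it for 8 weeks. In the labels, the field for treatment gives 8, 9 and 10 weeks for the WT replicates and 11, 12 and 13 weeks for the Cys52Ser replicates. Taken literally, that field would leave genotype and diet time in a design where they cannot be told apart. Strain, zygosity and how the allele was made are not given in the sources used here, and no group on a control diet was analysed here.

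Liver sinusoids are lined by fenestrated endothelial cells that lack a continuous basement membrane. These cells take up waste macromolecules from the blood through scavenger receptors and depend on vascular endothelial growth factor (VEGF) signalling to keep their fenestrated state. In chronic liver injury they can lose scavenger and lectin receptors and take on features of ordinary capillaries, a change called capillarization. None of the 10 genes is expressed only by these cells. Cdh5, Pecam1 and Kdr are found in all vascular endothelium, Lyve1 and Flt4 also in lymphatic endothelium, Stab1 and Lyve1 also in some macrophages, and Pecam1 also in platelets and leukocytes.

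Total counts per library lay between 53318196 and 73900923. Each of the 10 genes had between 1206 and 8130 counts in every library. Albumin took 3.6% to 5.55% of all counts in WT and 8.08% to 8.49% in Cys52Ser. The TMM factors that correct for such shifts in composition were 1.05 to 1.21 in WT and 0.814 to 0.963 in Cys52Ser. Levels below are counts relative to the TMM-adjusted library size (CPM) unless FPKM, which is also scaled to transcript length, is named. Fold changes are Cys52Ser against WT from edgeR's quasi-likelihood test, and a gene is called at a Benjamini-Hochberg adjusted p below 0.05 over 18648 tested genes. Prdx1 itself was measured at 864, 920 and 978 CPM in WT and 859, 661 and 819 CPM in Cys52Ser. Its log2 fold change was -0.24 (edgeR adjusted p = 0.421), and -0.59 with library totals alone (edgeR adjusted p = 0.0188). Counts per gene do not show a substituted amino acid, so this is no check of the genotype labels.

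Of the 10 genes, 4 rose in Cys52Ser and 0 fell, where 2.52% of all tested genes were called higher and 2.46% lower, together 4.98%. Those that rose were Cdh5, Dnase1l3, Kdr and Gpr182, by 1.49-fold to 1.76-fold. At an unadjusted p below 0.05, 5 were higher and 0 lower. The share of all tested genes below that unadjusted threshold was not counted. Such counts, here and for the lists below, therefore have no background beside them. DESeq2 also called 4 higher, against 8.04% of the 16343 genes with a DESeq2 adjusted p, and none lower. In either direction it called 2493 of those 16343 genes. The DESeq2 counts for the lists below are in either direction and stand beside that number. The median log2 fold change of the 10 genes was 0.40, with 9 of 10 positive, beside a median of -0.0032 and 9272 positive of 18648 over all tested genes. The calls rested on few mice. Without replicate 2 of WT or replicate 1 or 3 of Cys52Ser, 0 of the 10 genes were called, without WT replicate 1 Kdr alone, without WT replicate 3 Kdr and Dnase1l3, and without Cys52Ser replicate 2 Kdr, Dnase1l3 and Cdh5. Over all genes, too, each of these fits made fewer calls than the 928 of the main fit. In the same order they called 57 of 19349 genes, 31 of 19278 and 28 of 19267. The fits named after those called 409 of 19008, 790 of 19452 and 504 of 19364. The calls also depended on the scaling. With library totals alone the median of all genes moved to -0.35 and that of the 10 genes to 0.05, and 0 of the 10 genes were called higher or lower, where 1.57% of all genes were called higher and 14.6% lower. In that fit 6 of the 10 log2 fold changes were positive, those of Flt4, Lyve1 and Pecam1 having turned negative, and 3 of the 10 genes were higher and 2 lower at an unadjusted p below 0.05. Of all calls, 50.5% were higher with TMM factors and 9.71% with library totals. In whole tissue, fewer cells of a type and less RNA per cell cannot be told apart.

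Among the receptors for growth factors, Kdr encodes VEGFR2, the main signalling receptor for VEGF-A on blood endothelium. Kdr (ENSMUSG00000062960, GRCm38 chromosome 5, 75932827 to 75978458) stood at 33.9, 28.7 and 32.1 CPM in WT replicates 1, 2 and 3 and at 49.2, 46.4 and 52.7 CPM in the Cys52Ser replicates. Every Cys52Ser liver lay above every WT liver. The means were 31.6 ± 2.66 and 49.5 ± 3.12 CPM (SD, n = 3 each), a log2 fold change of 0.65 with a standard error of 0.10 (edgeR adjusted p = 0.0243). Flt4 encodes VEGFR3, the receptor for VEGF-C and VEGF-D. Flt4 (chromosome 11, 49609263 to 49652739) stood at 29.4, 27.5 and 20.9 CPM in WT and 32.9, 29.2 and 36.7 CPM in Cys52Ser. The groups overlapped, since Cys52Ser replicate 2 lay below WT replicate 1. Its log2 fold change was 0.34 (95% confidence interval -0.02 to 0.71, edgeR adjusted p = 0.249), so no change was shown and a rise as large as that of Kdr lies within the interval.

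**Figure D1:**
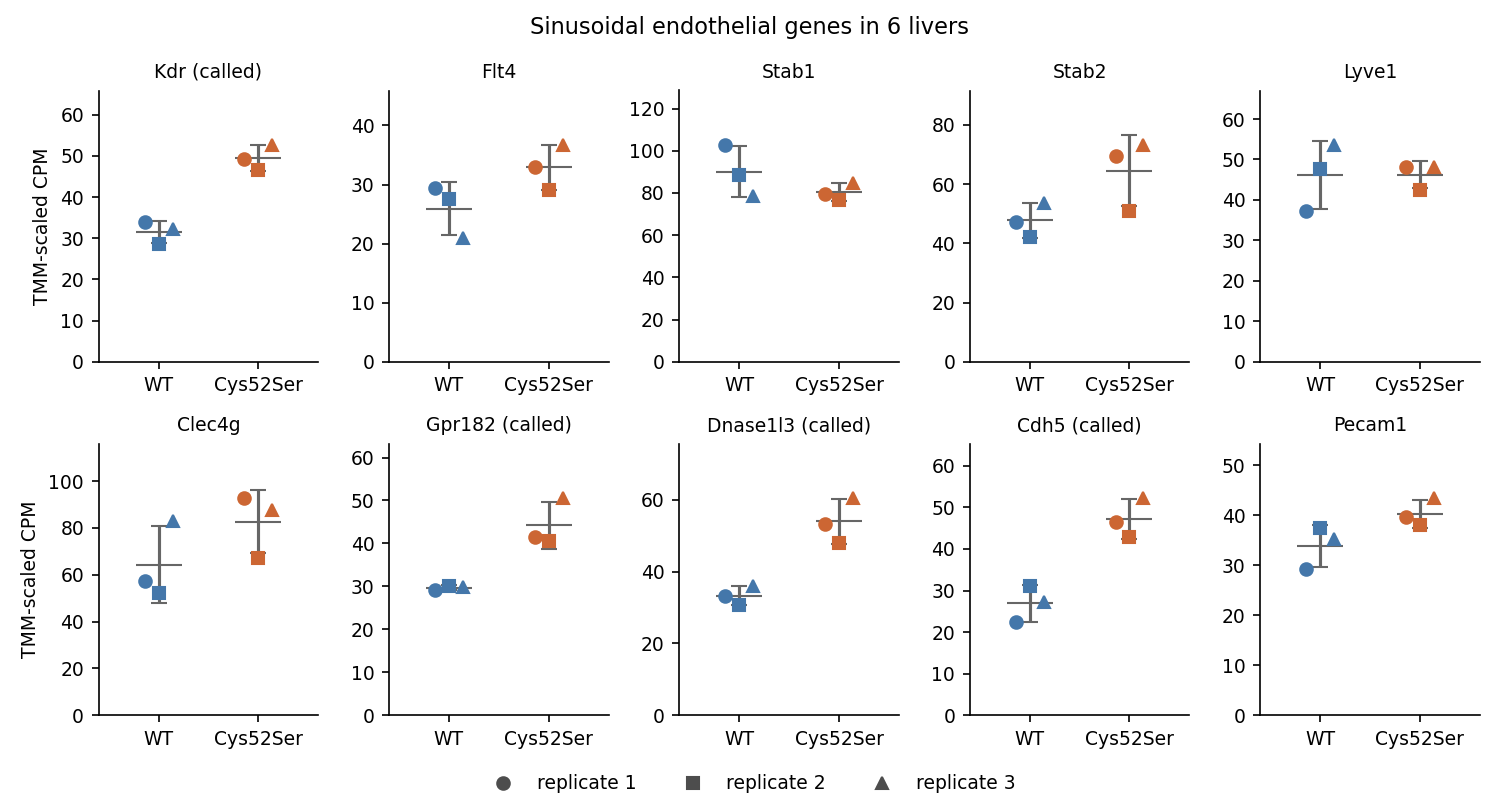
TMM-scaled CPM (vertical axes, from 0) of each of the 10 genes in the 3 WT (blue) and 3 Cys52Ser (orange) livers, with marker shapes for the replicates and bars for the mean and SD. In Kdr, Gpr182, Dnase1l3 and Cdh5, marked as called, and in Pecam1, every Cys52Ser point lies above every WT point; in the other 5 genes the groups overlap.

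No change passed the test in the scavenger receptors. Stab1 and Stab2 encode stabilin-1 and stabilin-2, large paralogous receptors that clear modified lipoproteins, collagen fragments and, in the case of stabilin-2, hyaluronan. Both gene models have 69 exons in their longest coding transcript (GENCODE M21). Stab2 (chromosome 10, 86841198 to 87008025) stood at 47.3, 42.2 and 53.7 CPM in WT and 69.4, 51.0 and 73.2 CPM in Cys52Ser. Cys52Ser replicate 2 fell within the WT range and the other two Cys52Ser livers lay above it. The log2 fold change was 0.44 (95% confidence interval 0.06 to 0.81), which did not pass adjustment (edgeR unadjusted p = 0.029, adjusted p = 0.165). Stab1 (chromosome 14, 31139013 to 31168641), which macrophages also express, stood at 103, 88.5 and 78.8 CPM in WT and 79.6, 76.6 and 84.9 CPM in Cys52Ser. It was the only gene of the 10 with a negative log2 fold change, -0.16 (95% confidence interval -0.45 to 0.12, edgeR adjusted p = 0.498), and its groups overlapped.

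Lyve1 encodes a hyaluronan receptor that marks midzonal sinusoids and lymphatic vessels. Lyve1 (chromosome 7, 110850607 to 110863239) stood at 37.2, 47.7 and 53.6 CPM in WT and 48.3, 42.4 and 48.2 CPM in Cys52Ser. The means were nearly the same, 46.2 ± 8.34 and 46.3 ± 3.40 CPM (SD, n = 3 each), and the log2 fold change of 0.0033 had a 95% confidence interval from -0.34 to 0.35. Clec4g encodes LSECtin, a C-type lectin of sinusoidal endothelium that binds glycans and T cells. Clec4g (chromosome 8, 3707064 to 3718653) stood at 57.4, 52.4 and 83.0 CPM in WT and 92.8, 67.3 and 87.6 CPM in Cys52Ser. The WT livers spread widely, with replicate 3 above Cys52Ser replicate 2, and the log2 fold change was 0.36 (95% confidence interval -0.12 to 0.84, edgeR adjusted p = 0.354). Gpr182, an atypical receptor that takes up chemokines without signalling through G proteins, differed from these in how tight its WT values were. Gpr182 (chromosome 10, 127747276 to 127751732) stood at 29.0, 30.1 and 29.9 CPM in WT and 41.5, 40.7 and 50.6 CPM in Cys52Ser. Its means were 29.7 ± 0.582 and 44.2 ± 5.49 CPM (SD, n = 3 each), a rise of 0.57 on the log2 scale with a standard error of 0.11 (edgeR adjusted p = 0.0388). This call was lost in each of the 6 fits that left out a library (adjusted p from 0.0528 to 0.12).

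Dnase1l3 encodes a secreted nuclease that digests DNA in chromatin and microparticles in the blood. Dnase1l3 (chromosome 14, 7964533 to 7994573) stood at 33.1, 30.6 and 36.0 CPM in WT and 53.4, 48.1 and 60.5 CPM in Cys52Ser. The groups were well apart, at means of 33.3 ± 2.67 and 54.0 ± 6.22 CPM (SD, n = 3 each), and the log2 fold change was 0.70 with a standard error of 0.12 (edgeR adjusted p = 0.0277).

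The junction proteins are pan-endothelial. Cdh5 encodes VE-cadherin, the adhesion molecule of endothelial adherens junctions, and Pecam1 encodes CD31, an immunoglobulin-family adhesion molecule at the same cell borders. Cdh5 (chromosome 8, 104101625 to 104144511) stood at 22.4, 31.1 and 27.1 CPM in WT and 46.6, 42.8 and 52.3 CPM in Cys52Ser. This was the largest rise among the 10 genes, from 26.9 ± 4.37 to 47.2 ± 4.75 CPM (SD, n = 3 each), with a log2 fold change of 0.81 and a standard error of 0.14 (edgeR adjusted p = 0.0315). Pecam1 (chromosome 11, 106654217 to 106750628) stood at 29.2, 37.4 and 35.2 CPM in WT and 39.6, 38.0 and 43.4 CPM in Cys52Ser. The groups did not overlap, but WT replicate 2 and Cys52Ser replicate 2 lay close together and the log2 fold change of 0.25 (95% confidence interval -0.03 to 0.53) did not pass (edgeR adjusted p = 0.277).

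Promoter sequence was at hand for 5 of the 10 genes (Kdr, Flt4, Stab1, Stab2 and Clec4g), from RefSeq on GRCm38.p6. The 250 bases before the RefSeq start are shown for Kdr, which rose, and for Stab1 and Clec4g, which did not pass, in the direction of transcription. Capitals mark AGGAAG on either strand, 1 form of the motif bound by ETS factors, which act in endothelial genes. Other forms of that motif were not searched, so a window without a match to these letters may still hold one. The RefSeq start of Clec4g lies outside the range that the deposited table gives for the gene. The Kdr window (chr5:75978456-75978705, minus strand) holds no match, the Stab1 window (chr14:31168642-31168891, minus strand) holds 1 and the Clec4g window (chr8:3720652-3720901, minus strand) holds 3, of which 2 overlap.

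Kdr: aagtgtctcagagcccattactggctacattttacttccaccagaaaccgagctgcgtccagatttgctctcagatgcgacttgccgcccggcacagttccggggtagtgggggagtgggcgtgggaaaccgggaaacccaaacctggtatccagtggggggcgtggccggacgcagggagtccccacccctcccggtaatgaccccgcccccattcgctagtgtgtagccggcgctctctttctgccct

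Stab1: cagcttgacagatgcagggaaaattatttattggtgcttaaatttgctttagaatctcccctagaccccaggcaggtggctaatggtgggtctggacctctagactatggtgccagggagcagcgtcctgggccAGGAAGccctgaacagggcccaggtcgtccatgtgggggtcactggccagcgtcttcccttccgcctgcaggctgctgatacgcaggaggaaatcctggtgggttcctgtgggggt

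Clec4g: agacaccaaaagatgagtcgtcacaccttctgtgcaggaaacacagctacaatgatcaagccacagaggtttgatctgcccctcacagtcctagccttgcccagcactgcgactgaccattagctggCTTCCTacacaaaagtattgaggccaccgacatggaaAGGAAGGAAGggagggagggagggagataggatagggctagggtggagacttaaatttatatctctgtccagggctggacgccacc

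In all, 3 of the 5 windows (Stab1, Stab2 and Clec4g) hold AGGAAG on either strand, as do 29.5% of 32851 RefSeq promoter windows of this length. A form of the GATA motif, searched on both strands as AGATAA, had no match in the 5 windows and is held by 9.99% of all windows. Forms of the KLF motif, CACACCC, and the MAF element, TGCTGAC, had no match there either and are held by 6.93% and 3.81%. A form of the SOX motif, ACAATG, was found in the Clec4g window alone and in 10.7% of all windows. These are matches of letters and not binding sites, and other forms of the motifs were not searched.

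In 5 of the 10 genes every Cys52Ser liver lay above every WT liver, and in 0 every Cys52Ser liver lay below, where 14.4% and 15.2% of all tested genes were apart in these directions. An exact two-sided permutation test of log2 CPM gave p = 0.1 for each of these 5, the smallest that 3 against 3 samples allow, and from 0.2 to 0.8 for the others. The livers also differed within a genotype. Cys52Ser replicate 2 was the lowest of its group for all 10 genes, and replicate 3 the highest for 8 of them. The summed level of the 10 genes was 422, 416 and 450 CPM in WT replicates 1, 2 and 3 and 553, 482 and 590 CPM in the Cys52Ser replicates.

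**Figure D2:**
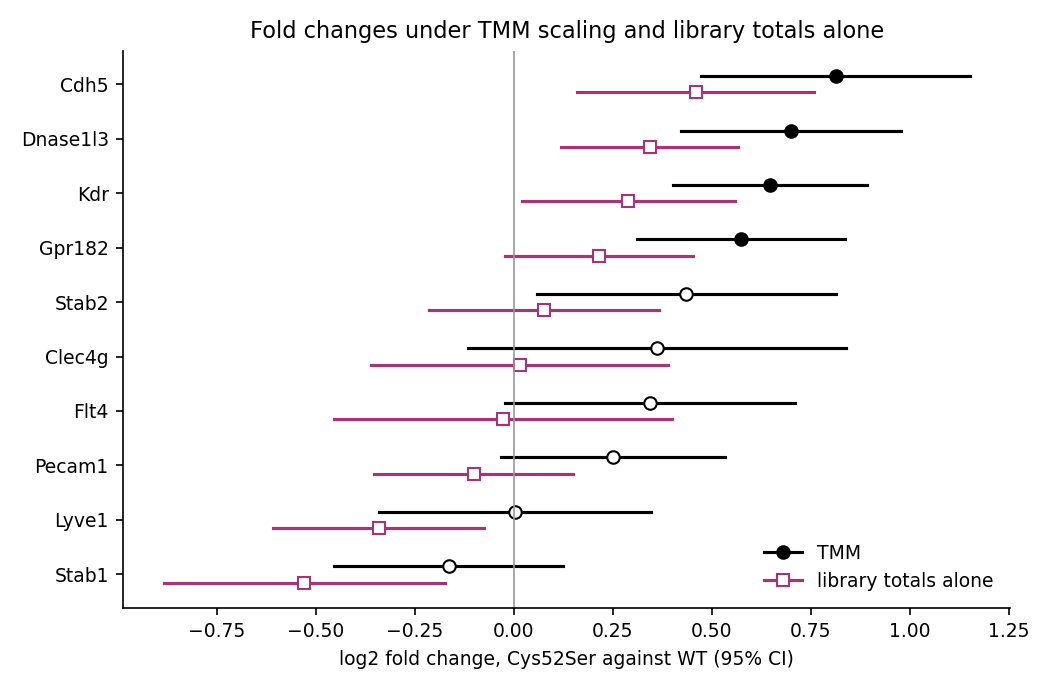
Log2 fold change of each gene, Cys52Ser against WT (horizontal axis), with 95% confidence intervals, under TMM factors (black circles) and library totals alone (purple squares); filled symbols are called. Each gene moves left by 0.34 to 0.37 without TMM factors, which leaves Cdh5, at 0.46, the highest and Stab1, at -0.53, the lowest.

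Per transcript length, which allows levels of different genes to be compared, Clec4g was the most abundant of the 10 genes and Flt4 the least. In WT, Clec4g stood at 25.8 ± 4.81 FPKM and Lyve1 at 15.7 ± 1.72 FPKM, followed by Stab1, Gpr182, Dnase1l3, Cdh5, Stab2, Pecam1, Kdr and Flt4, the last at 3.18 ± 0.775 FPKM (SD, n = 3 each). The ranges of neighbours in this order were apart between Clec4g and Lyve1, Lyve1 and Stab1, Gpr182 and Dnase1l3, and Pecam1 and Kdr. The others did not differ beyond their spread. Cdh5 ranked 6 of 10 in WT, at 6.36 ± 0.943 FPKM, and 3 of 10 in Cys52Ser, at 8.77 ± 0.274 FPKM. Stab1 ranked 3 in WT, at 8.80 ± 1.87 FPKM, and 6 in Cys52Ser, at 6.11 ± 0.181 FPKM (all SD, n = 3). The ranges of Kdr and Flt4, which overlapped in WT, were apart in Cys52Ser, at 4.22 to 4.36 and 3.01 to 3.26 FPKM.

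**Figure D3:**
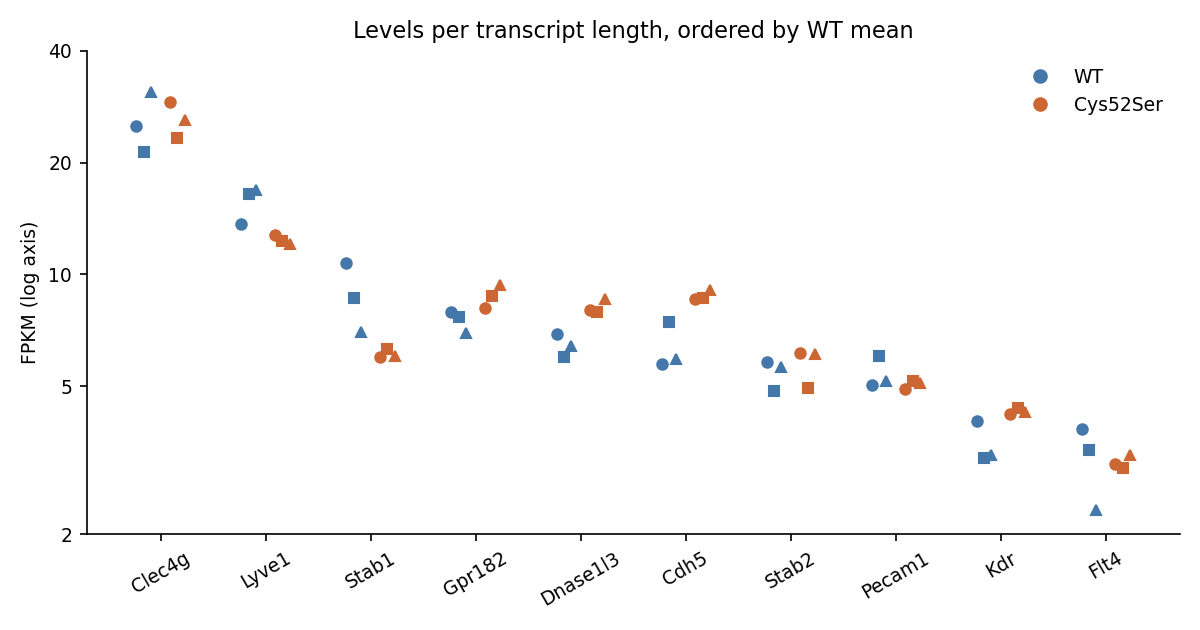
FPKM of the 10 genes on a log axis, ordered by the WT mean, in WT (blue) and Cys52Ser (orange) livers, 1 point per liver with shapes for the replicates as circles, squares and triangles for 1, 2 and 3. Clec4g and Lyve1 lead in both genotypes, and the orange points of Cdh5 lie above and those of Stab1 below the blue ones.

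On the deposited FPKM scale, which has no correction for composition, 4 of the 10 genes lay higher in every Cys52Ser liver (Kdr, Gpr182, Dnase1l3 and Cdh5) and 2 lower (Stab1 and Lyve1), where 4.71% and 37.7% of all tested genes did. Limma on log2(FPKM + 0.5) called Cdh5 alone higher (log2 difference 0.44, adjusted p = 0.039), where it called 2.65% of genes higher and 21.3% lower. Dnase1l3 missed the threshold (0.33, limma adjusted p = 0.0515), and so did Stab1 (-0.47, limma adjusted p = 0.0592) and Lyve1 (-0.32, limma adjusted p = 0.0637). After quantile normalization of FPKM the 4 calls were Kdr, Gpr182, Dnase1l3 and Cdh5 again, with 4.14% of genes called higher. The summed FPKM of the 10 genes was 88.8, 85.0 and 90.4 in WT and 91.0, 84.6 and 89.8 in Cys52Ser, so on this scale the groups overlapped.

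The share of each gene in that sum was also compared, a measure that no scaling between libraries can move. Cdh5 made up 6.45%, 8.76% and 6.54% of the summed FPKM in WT and 9.42%, 10.2% and 10.1% in Cys52Ser. Dnase1l3 made up 7.30% ± 0.420 in WT and 9.25% ± 0.385 in Cys52Ser, and Kdr 3.97% ± 0.504 and 4.85% ± 0.274 (SD, n = 3 each). In the other direction, Stab1 made up 12.1%, 10.2% and 7.76% in WT and 6.57%, 7.46% and 6.71% in Cys52Ser. Lyve1 made up 15.4%, 19.4% and 18.6% in WT and 14.1%, 14.6% and 13.4% in Cys52Ser. For these 5 genes the groups did not overlap, while the shares of Flt4, Stab2, Clec4g, Gpr182 and Pecam1 did. The shares were not tested, and no such count was made for other genes, so this one has no background beside it. The shares of 1 liver add up to 100%, so a larger share of some genes lowers those of others.

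Ratios of related genes within a liver were compared for 3 pairs by exact two-sided permutation tests, of which none can pass, since 0.1 is the smallest p for 3 against 3. The log2 count ratio of Cdh5 to Pecam1 was -0.39, -0.26 and -0.37 in WT and 0.23, 0.17 and 0.27 in Cys52Ser, a difference of 0.57 (exact permutation p = 0.1, 0.3 adjusted over the 3 pairs). The ratio of these junction genes was the tightest of the pairs in both genotypes. That of Stab2 to Stab1 was -1.12, -1.07 and -0.55 in WT and -0.20, -0.59 and -0.21 in Cys52Ser, a difference of 0.58 with overlapping groups (exact permutation p = 0.2, adjusted 0.3). That of Flt4 to Kdr was -0.20, -0.06 and -0.62 in WT and -0.58, -0.67 and -0.52 in Cys52Ser, a difference of -0.30 with overlapping groups (exact permutation p = 0.3, adjusted 0.3).

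**Figure D4:**
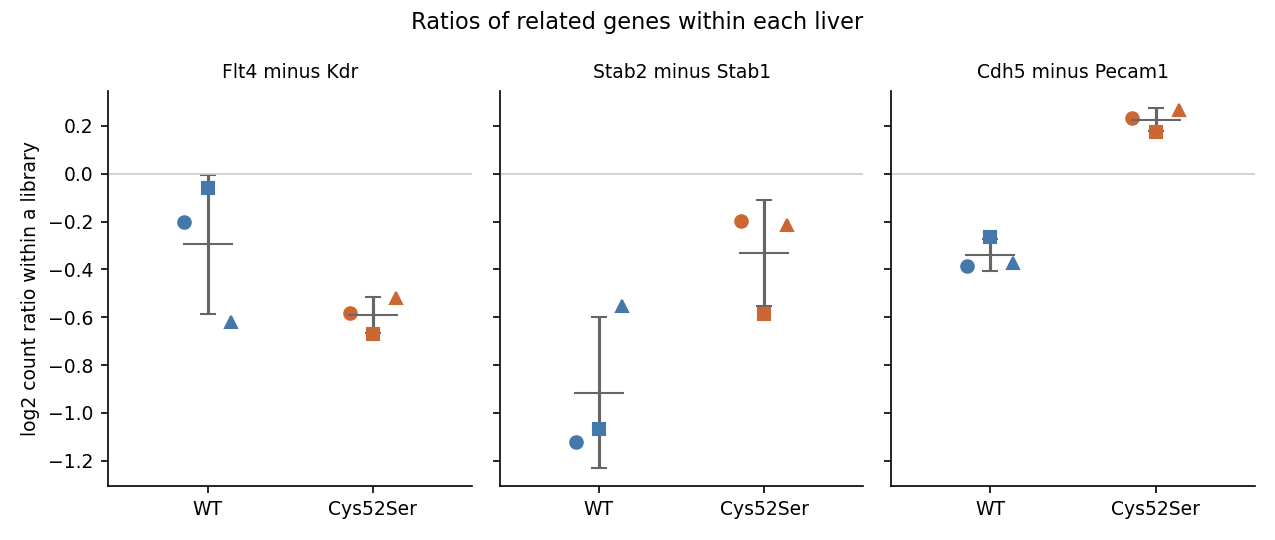
Log2 ratio of the counts of related genes within each liver (vertical axis) for Flt4 to Kdr, Stab2 to Stab1 and Cdh5 to Pecam1, in WT (blue) and Cys52Ser (orange), with mean and SD and shapes for the replicates. Only in the panel of Cdh5 to Pecam1 are the groups apart, with WT below 0 and Cys52Ser above 0.

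The members were next set beside other genes of endothelium. Of 12 other sinusoidal endothelial genes, 2 rose and 0 fell, all 12 log2 fold changes were positive and the median was 0.50. Ptgs1, cyclooxygenase-1, stood at 15.3, 18.5 and 18.8 CPM in WT and 27.5, 26.8 and 34.6 CPM in Cys52Ser, a 1.69-fold rise (edgeR adjusted p = 0.0362). Ehd3, a membrane-trafficking protein enriched in these cells, rose 1.73-fold (edgeR adjusted p = 0.0487). The call of Ptgs1 was lost without any 1 of the 6 libraries, and that of Ehd3 without any 1 of them but WT replicate 3. The endocytic receptors Mrc1 and Fcgr2b, which macrophages share, had log2 fold changes of 0.56 and 0.29 and did not pass (edgeR adjusted p = 0.058 and 0.122), though every Cys52Ser liver lay above every WT liver for both. By edgeR 9 of the 12 had an unadjusted p below 0.05, and DESeq2 called 6. With library totals alone 0 of the 12 were called and their median was 0.14.

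Of 20 pan-endothelial genes, 1 rose and 1 fell, 16 of 20 log2 fold changes were positive and the median was 0.16, or -0.20 with library totals. By edgeR 7 of the 20 had an unadjusted p below 0.05. DESeq2 called 4 in either direction, beside 2493 of 16343 over all genes. Library totals alone called 0 higher and 2 lower, Ecscr and Rhoj, the second of which is named after its values were seen. S1pr1, the sphingosine 1-phosphate receptor that stabilizes junctions, stood at 43.5, 32.8 and 30.9 CPM in WT and 72.5, 69.3 and 73.4 CPM in Cys52Ser, a 2.01-fold rise (edgeR adjusted p = 0.0205). Ecscr, an endothelial surface protein, fell from 10.8 ± 0.569 to 6.23 ± 0.486 CPM (SD, n = 3 each), 1.74-fold lower (edgeR adjusted p = 0.0326). The call of S1pr1 was lost with library totals alone (edgeR adjusted p = 0.0536) and without replicate 2 of WT or replicate 1 or 3 of Cys52Ser, and that of Ecscr without any 1 of the 6 libraries. The angiopoietin receptor gene Tek did not pass, at 13.4 ± 1.16 and 13.7 ± 1.65 CPM (SD, n = 3 each; edgeR adjusted p = 0.917). Of 15 endothelial transcription factors 0 were called, with a median of 0.13. Those with the smallest p were Erg, at a log2 fold change of 0.81, and Nr2f2, at -0.33 (edgeR adjusted p = 0.10 and 0.335).

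The ligands of the VEGF receptors were measured in the same livers. Vegfc, a ligand of VEGFR3, stood at 13.2, 14.5 and 12.4 CPM in WT and 6.07, 6.22 and 5.90 CPM in Cys52Ser. It fell 2.20-fold (edgeR adjusted p = 0.0168) in a call that was lost without replicate 2 of WT or replicate 1 or 3 of Cys52Ser, and it was the only edgeR call among 10 genes of VEGF and angiopoietin ligands and other receptors, whose median was -0.33. Of these 10, 5 had an unadjusted edgeR p below 0.05, DESeq2 called 5 and library totals alone called 2 lower, Vegfc and Vegfd. Vegfd, the other ligand of VEGFR3, is named after its values were seen. It stood at 3.50, 2.94 and 2.81 CPM in WT and 1.38, 1.53 and 0.976 CPM in Cys52Ser (log2 fold change -1.25, edgeR adjusted p = 0.0641). Vegfa, the ligand of VEGFR2, had a mean of 88.1 ± 9.24 CPM in WT and of 131 ± 18.4 CPM in Cys52Ser (both SD, n = 3), which did not pass in edgeR (log2 fold change 0.57, adjusted p = 0.0652) and did in DESeq2 (adjusted p = 0.00511). Flt1, VEGFR1, had a log2 fold change of 0.35 (edgeR adjusted p = 0.312).

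Among 12 genes of continuous, venous or activated endothelium, 0 were called and the median log2 fold change was 0.05. Vwf, which marks large-vessel endothelium, stood at 10.1, 7.84 and 6.12 CPM in WT and 6.12, 6.44 and 6.41 CPM in Cys52Ser (edgeR adjusted p = 0.397). Cd34, a marker of continuous capillaries, stood at 33.3, 22.3 and 15.0 CPM in WT and 8.51, 31.0 and 6.87 CPM in Cys52Ser, with replicate 2 far above the other Cys52Ser livers (edgeR adjusted p = 0.638). Plvap, Vcam1 and Icam1 had log2 fold changes of 0.29, 0.54 and -0.48 (edgeR adjusted p = 0.445, 0.0997 and 0.134). None of 7 pericentral endothelial genes was called, with Rspo3 at -0.51 and Wnt9b at 1.20 (edgeR adjusted p = 0.116 and 0.126). None of 5 periportal ones was called either, with Adgrg6 at -1.25 and Dll4 at 0.23 (edgeR adjusted p = 0.0604 and 0.641). The pericentral list had 4 positive and 3 negative log2 fold changes, with a median of 0.26. In the periportal list 1 was positive, that of Dll4, and 4 were negative, with a median of -0.094. At an unadjusted p below 0.05, edgeR had 2 of the 12, 5 of the 7 and 1 of the 5 genes of these lists and 1 of the 15 transcription factors. DESeq2 called 1, 2, 1 and 1 of them after adjustment. With library totals alone edgeR called none of these genes higher and 4 lower. Those were Icam1 (adjusted p = 0.021), the pericentral Rspo3 (0.0411) and Thbd (0.0327), and the periportal Adgrg6 (0.0249), of which Thbd is named after its values were seen.

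**Figure D5:**
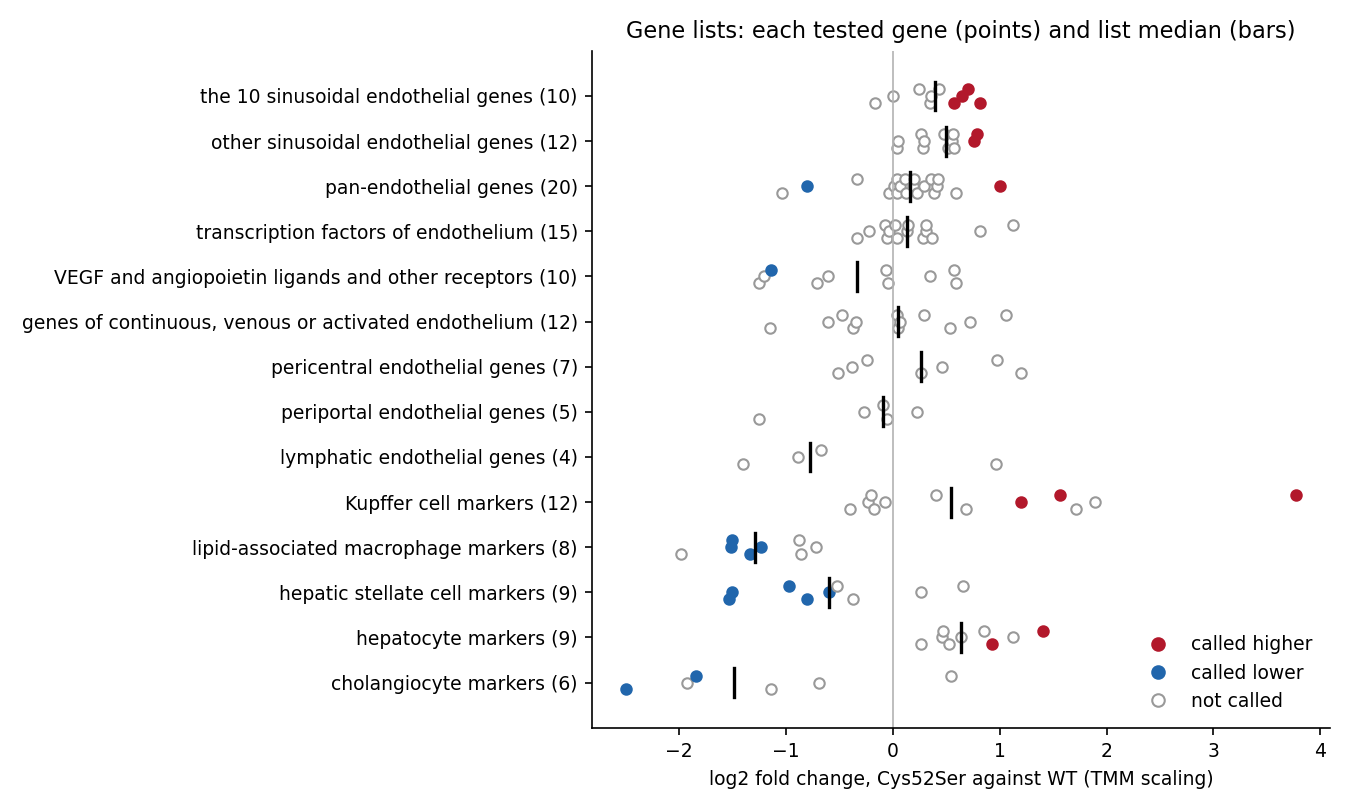
Log2 fold change of each tested gene, Cys52Ser against WT with TMM factors (horizontal axis), by gene list with the number tested in brackets; red and blue points are called higher and lower, and black bars are list medians. The 10 genes and the 12 other sinusoidal genes have medians of 0.40 and 0.50, and the lipid-associated macrophage, stellate and cholangiocyte lists lie to the left.

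Markers of other cells in the same tissue also moved with genotype, and their part in the values above was not tested. The summed level of 9 hepatocyte markers was 56322 to 89689 CPM in WT and 129056 to 160222 CPM in Cys52Ser, and 2 of the 9 rose, Cps1 and Hnf4a. Most of that sum was Alb, at 29788 to 53149 CPM in WT and 85846 to 104319 CPM in Cys52Ser. Alb was not called with TMM factors (log2 fold change 1.12, edgeR adjusted p = 0.0573) and was with library totals alone (edgeR adjusted p = 0.0304). Kupffer cells are the resident macrophages that share Stab1, Lyve1 and Mrc1 with sinusoidal endothelium. Their 12 markers summed to 1169 to 1607 CPM in WT and 1541 to 1962 CPM in Cys52Ser. Of these, 3 rose (Cd163, Clec4f and Folr2) and 0 fell, with 7 of the 12 log2 fold changes positive and 5 negative. For C1qa, C1qb and C1qc, complement genes picked out after their values were seen, every Cys52Ser liver lay below every WT liver, and library totals alone called these 3 lower and Cd163, Clec4f and Folr2 higher. Lipid-associated macrophage markers summed to 1767 to 3052 CPM in WT and 714 to 939 CPM in Cys52Ser, and 4 of 8 fell (Trem2, Gpnmb, Cd9 and Itgax). Stellate cell markers summed to 880 to 1159 CPM in WT and 552 to 706 CPM in Cys52Ser, and 5 of 9 fell (Rgs5, Ngfr, Cygb, Lrat and Dcn). Of the 9 log2 fold changes, 7 were negative and 2 positive, those of Des (0.66) and Ecm1 (0.26), named after their values were seen and not called. Cholangiocyte markers summed to 63.0 to 153 CPM in WT and to 35.8, 96.4 and 29.2 CPM in Cys52Ser replicates 1, 2 and 3, and 2 of 6 fell (Pkhd1 and Cldn7). The high sum of Cys52Ser replicate 2 was mostly Krt19, named after its values were seen. Krt19 stood at 61.7 CPM there and at 7.77 and 5.61 CPM in Cys52Ser replicates 1 and 3. Each of these 16 marker calls was lost without replicate 2 of WT and without replicate 1 or 3 of Cys52Ser. Lymphocyte markers summed to 8.88 to 10.7 CPM in WT and 12.1 to 19.9 CPM in Cys52Ser, and red blood cell genes to 160 to 271 and 309 to 346 CPM, with 0 of 6 and 0 of 5 called by edgeR, 1 in each list at an unadjusted p below 0.05, and 0 and 1 called by DESeq2.

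Lymphatic endothelium shares Lyve1 and Flt4 with the sinusoids, and platelets share Pecam1. Ccl21a, a lymphatic chemokine, had means of 5.09 and 1.93 CPM in WT and Cys52Ser (edgeR adjusted p = 0.282), and Pf4, a platelet chemokine, of 4.46 and 2.89 CPM. Prox1, which hepatocytes also express, was 74.7 ± 33.1 and 146 ± 24.7 CPM (SD, n = 3 each). None of the 4 lymphatic genes was called by edgeR, with 1 at an unadjusted p below 0.05, and DESeq2 called Prox1. The 6 platelet genes summed to 19.4 to 29.6 CPM in WT and 27.8 to 34.2 CPM in Cys52Ser. Most of that sum was Clec1b, which was picked out after its values were seen, so the sum is no measure of platelets as such. Clec1b had means of 17.6 ± 4.94 CPM in WT and 24.6 ± 3.39 CPM in Cys52Ser, with overlapping groups (both SD, n = 3). For Pf4 every Cys52Ser liver lay below every WT liver. Of the 4 platelet genes tested, 3 had positive log2 fold changes and Pf4 alone a negative one. For Ppbp and Itga2b, the second named after its values were seen, every Cys52Ser liver lay above every WT liver. Ppbp was low, with means of 0.103 CPM in WT and 0.672 CPM in Cys52Ser (log2 fold change 2.64, edgeR adjusted p = 0.224). Itga2b had a log2 fold change of 0.24 (edgeR adjusted p = 0.586). With library totals alone Pf4 was called lower (edgeR adjusted p = 0.0452). With TMM factors 0 of the 4 that could be tested were called by edgeR, with 1 at an unadjusted p below 0.05, or by DESeq2. No gene of any of these lists was at 0 counts in all 6 livers.

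Some members overlap other genes on the opposite strand, where reads cannot be told apart unless counting used the strand. The sources used here do not say whether it did. Stab1 shares 112 bases with Nt5dc2 and Gpr182 shares 74 bases with Zbtb39, genes measured at 16.6 to 29.4 and 8.80 to 13.3 CPM over the 6 livers, neither of them called. The antisense genes Gm16268 and Gm16271 across from Stab2 stayed at or below 0.191 CPM, and Gm16553 across from Clec4g at or below 0.574 CPM. Gm29682 overlaps 4249 bases of the Cdh5 region and was not analysed here. Kdr, Flt4, Lyve1, Dnase1l3 and Pecam1 overlap no other annotated gene.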

How the data were processed

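Poly(A) RNA from the livers of 6 mice, 3 per genotype, was sequenced as paired ends with strand-marked libraries that carried molecular identifiers, per the labels' protocols. The deposited table gives each gene an estimated count, as a whole number, and FPKM as the authors computed it, in every sample. Per the submitters' processing notes, which give no roles, the tools were HISAT2 2.0.4, StringTie 1.3.4d, cutadapt 1.9, UMI-tools, edgeR and DESeq2, and the build mm9. The sources used here do not say how counts were made or whether strand was used. The coordinates of 25674 of 28601 genes were identical to those of GENCODE M21 on GRCm38, so positions are given on GRCm38.

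Counts were tested with edgeR 4.0.16 (R 4.3.3) by the quasi-likelihood test with TMM factors, robust fitting and filterByExpr at a minimum count of 10, which left 18648 genes. CPM values use the same TMM factors. FPKM was tested with limma 3.58.1 on log2(FPKM + 0.5) for genes of at least 0.5 FPKM in 3 samples; fold changes on that scale understate those of low genes. DESeq2 1.42.0, other scalings, filters and pseudocounts, a replicate block and leaving out each library were the alternatives. Benjamini-Hochberg adjustment covered all genes tested, with a threshold of 0.05. The edgeR step was tested on simulated data. No sample pair looked like a duplicate. The labels do not say how the replicates were raised, so p-values measure the spread between these samples.

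The 10 genes and the comparison lists were chosen with earlier results of these data known. Chosen to be named were the 10 genes, Prdx1 and, in each list, every called gene up to 6 by p or the 2 with the smallest p. Fixed genes named as well were Alb, Vwf, Cd34, Plvap, Vegfa, Flt1, Tek, Clec4f, Trem2, Lrat, Pf4, Mrc1 and Fcgr2b. Those chosen from the lymphocyte and red blood cell lists, Cd8a, Cd79a, Alas2 and Hba-a2, are given above only within the list sums and counts.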

Additional observations from a re-analysis of the deposited data

How the results depend on the processing

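The 4 calls among the 10 genes (Kdr, Gpr182, Dnase1l3 and Cdh5) were made again with RLE or upper quartile scaling, no filter, a mean CPM of at least 1, a non-robust fit, DESeq2 and quantile-normalized FPKM. Library totals alone gave 0, and limma on log2(FPKM + 0.5), log2(FPKM + 0.1) and log2(FPKM + 1) gave 1, 1 and 1, or 0 without a filter. Leaving out 1 library gave 0 to 3. No member was called lower in any setting, and none of the 4 changed sign. Over all genes, 928 calls became 3017 with library totals, 2493 with DESeq2 and 3345, 3340 and 3327 with limma at the 3 pseudocounts in that order. Leaving out 1 library gave 28 to 790. The cause was not tested.

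With the replicate block 2 members were called (Kdr and Dnase1l3) and 729 genes in all. Deviations from the group mean had correlations of -0.055, 0.12 and 0.0084 for same-numbered samples. For samples of unlike number they were -0.080 to 0.094. With 3 samples a group these values cannot show whether equal numbers pair animals.

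Log2 fold changes of 8 genes that did not pass changed sign in some settings. Lyve1, at 0.0033, became -0.037 with upper quartile scaling, -0.34 with library totals, -0.0031 without a filter and -0.0053 at a mean CPM of at least 1. It was -0.32, -0.33, -0.31 and -0.32 with limma (pseudocounts 0.5, 0.1 and 1, then no filter) and -0.090 after quantile normalization. With library totals Flt4 was -0.028, Pecam1 -0.10, Dll4 -0.11, Plvap -0.076, Flt1 -0.0018, Tek -0.32 and Fcgr2b -0.063. In the same 4 limma settings Pecam1 was -0.086, -0.092, -0.079 and -0.086, and Dll4 -0.069, -0.082, -0.057 and -0.069. Plvap was -0.065, -0.066, -0.064 and -0.065 there, Tek -0.26, -0.30, -0.23 and -0.26, and Fcgr2b -0.059, -0.061, -0.057 and -0.059. At a pseudocount of 1, Flt4 was -0.0023 and Flt1 -0.00017. Tek was -0.0012 with upper quartile scaling. Leaving out 1 library gave -0.18 to 0.066 for Lyve1, -0.032 to 0.32 for Dll4 and -0.086 to 0.11 for Tek.

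With 3 mice a group, no exact permutation test can go below 0.1. Each member had 1206 or more counts in every library, and whether depth or the number of mice limits the precision was not compared.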
